A study of Mus musculus with 8 samples.

Results

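Activation of CD8+ T cells that lack the transcription factor gene Elf4 was followed by comparing 2 arrays of activated knockout cells with 2 arrays of naive knockout cells, 4 of the 8 arrays of the series. The 4 arrays were taken by their titles, and each gave an intensity for 45037 probe sets after the manufacturer's controls were left out. All cells were CD8+ cells purified from mouse spleen. The knockout mice carried the label Elf4-/- KO, with no background strain given, and the wild-type mice of the other 4 arrays were C57BL/6. Age and sex are not among the labels. Naive cells were left untreated. Activated cells spent 3.5 days on plates coated with anti-CD3, in RPMI medium with 10% FBS, 5% T-stim and anti-CD28. Anti-CD3 engages the T cell receptor complex and anti-CD28 the costimulatory receptor, so the treatment stands in for antigen and for a dendritic cell. No label says whether the 2 arrays of a group came from different animals or cultures. A p-value therefore speaks only of the spread among these arrays, and that spread may be technical.

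A naive CD8+ T cell is small and does not divide. It circulates through lymphoid organs on CCR7 and S1PR1, and it needs IL-7 and contact with self peptides to survive. When the T cell receptor and CD28 are engaged together the cell grows, rebuilds its metabolism for synthesis, divides many times and becomes an effector that secretes cytokines and kills with granzymes and perforin. ELF4 is a member of the ETS family of transcription factors, which bind a short GGA core, and it is known to hold back the division of CD8+ T cells and to act through the Krüppel-like factors KLF4 and KLF2. The series asked how ELF4 controls the proliferation of these cells, and the comparison here asks what activation did to RNA levels where ELF4 was missing.

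Other measures changed together with activation and must be read beside every result. The names of the array files carry 1 project code for the naive samples and another for the activated samples, in both genotypes, so array series and activation state cannot be told apart. Both naive wild-type samples carry the same array file name in their labels although their values differ (correlation 0.940), and whether that name is an error was not settled. Xist, the long RNA of the inactive X, read 66.6 and 60.3 on the naive knockout arrays and 10011 and 8966 on the activated ones. The Y-linked translation factor gene Eif2s3y read 2537 and 3768 on the naive arrays against 18.2 and 44 on the activated ones, a male pattern in the naive and a female pattern in the activated RNA. The 5' probe set of the Lys spike-in control read 62.8 and 49.6 on the naive and 55598 and 59027 on the activated arrays, and its 3' probe set read 989 and 989 and then 67651 and 78734. The signal of the 3' over that of the 5' probe set of Actb, which rises as RNA or its copies shorten, was 1.99 and 1.96 on the naive and 7.44 and 11.1 on the activated arrays, and that of Gapdh was 4.21 and 3.38 and then 5.39 and 7.56. Sex pattern, array series, spike-in level, 3'/5' ratio and activation cannot be told apart in these 4 arrays. Each array had been scaled to a 2% trimmed mean intensity of 500.0, so every change is relative to the rest of the RNA on the array, and no change of the total RNA per cell can be seen. Replicate arrays correlated at 0.956 for naive and 0.958 for activated knockout cells on the log2(intensity + 16) scale, while naive and activated knockout arrays correlated at 0.870 to 0.882.

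Markers of other spleen cells were measured to see what else the naive preparations held. No value on any array was at or under 0. A marker value above 0 is therefore by itself no sign of a cell type. The counts of called markers are to be read beside all named genes, of which 14.5% rose and 17.1% fell (calls are defined below). Of 22 measured genes of B cells and plasma cells 19 fell on activation, and their summed intensity was 49667 and 85174 on the naive arrays against 10243 and 11734 on the activated ones. Of 14 granulocyte genes 8 fell (5 without naive replicate 2 and 5 without activated replicate 1), from sums of 5063 and 20128 to 328 and 594. The naive wild-type arrays had granulocyte sums of 686 and 1200, so naive knockout replicate 2 stood highest of the 4 naive arrays. Of 19 macrophage and monocyte genes 10 fell, from 9029 and 19192 to 1198 and 1257. Dendritic cell genes summed to 16004 and 11988 on the naive and 4930 and 4532 on the activated arrays, where 4 of 10 fell and Batf3 rose. The falls with the smallest p were those of Ccr9 (log2 change -7.62) and Itgae (-3.30), which are also in the homing list below. Bst2 is also in the interferon list, so this sum is not particular to dendritic cells. NK cell genes summed to 18407 and 19298 and then to 4514 and 4744, with 4 of 9 falling (2 without naive replicate 2) and 2 rising. No NK cell gene rose (0) without naive replicate 1, either activated replicate or either activated wild-type array, and 1 rose without naive replicate 2.

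The activated arrays also gained signal for the platelet chemokine genes Pf4 and Ppbp. Of 10 platelet and megakaryocyte genes 3 rose and 7 had no call, and the sums went from 570 and 867 to 4608 and 4899. Beside the chemokine genes only Vwf rose (log2 change 1.83). Pf4, a chemokine stored in platelet granules, read 38 and 86.3 on the naive and 2330 and 2523 on the activated arrays (log2 change 5.04). Ppbp, another platelet chemokine, read 19.5 and 4.78 and then 1005 and 1037 (log2 change 5.25). Of 8 erythroid genes 1 fell (0 without naive replicate 2, either activated replicate or either activated wild-type array), with sums of 702 and 1025 against 651 and 724. This erythroid share, 12.5%, was no higher than the 17.1% of falls over all named genes. The 8 measured CD8 T cell markers all fell, from sums of 102439 and 93826 to 30079 and 32563, whereas Cd4 read 25.4 and 42.3 and then 18.6 and 20.5, with no call. Of 8 genes of CD4 and regulatory T cells 3 rose, namely Il2ra, Ctla4 and Ikzf2, which activated T cells also express, and Gpr83 fell. Their sums went from 2405 and 3005 to 29816 and 27560, and Foxp3 had no call. Ikzf2 rose on its brightest probe set, while a dimmer one fell (log2 change -1.51). The activated arrays therefore held low signal for B cells, granulocytes and macrophages, and a signal for platelet chemokines that was low on the naive arrays. In RNA from a mixed population fewer cells of a type and less RNA per cell cannot be told apart, and the part of these other cells in the results that follow was not tested.

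**Figure D1:**
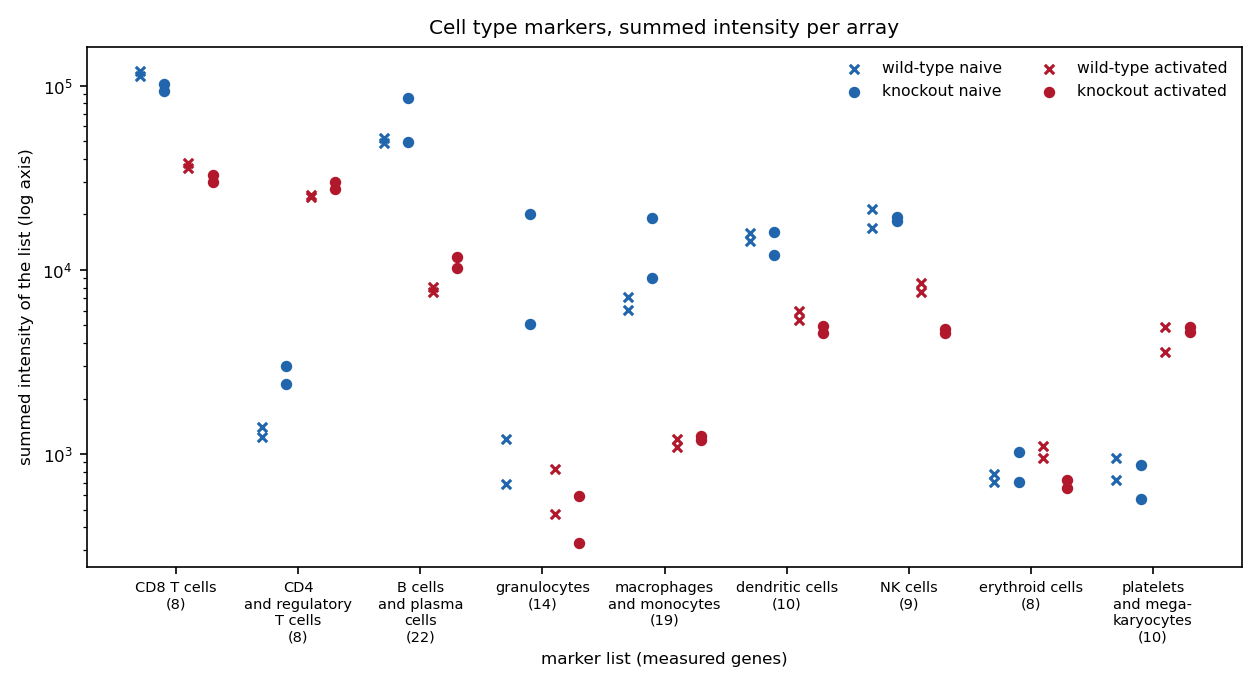
Summed intensity of the marker genes of 9 cell types on each of the 8 arrays, on a log10 axis, with naive and activated arrays of each genotype drawn as separate points. B cell, granulocyte and macrophage sums were lower on both activated knockout arrays than on both naive knockout arrays, and the platelet sum was higher, at 4608 and 4899 against 570 and 867.

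A large part of the measured RNA differed between the naive and activated knockout arrays. A change was called at an adjusted p of 0.05 from limma's moderated test with Benjamini-Hochberg adjustment over all probe sets, and "rose" and "fell" are used only for called changes. Of the 45037 probe sets 10696 were called, 23.7%, with 4741 higher (10.5%) and 5955 lower (13.2%) in activated cells. By gene, each represented by its brightest probe set, 2642 of 18193 named genes rose (14.5%) and 3116 fell (17.1%), 31.6% in all, and the median change over all named genes was -0.07 on the log2 scale. At least 8-fold changes numbered 501 rises and 476 falls among the probe sets. The 2 naive and 2 activated values did not overlap for 58.5% of all probe sets. A lack of overlap given for single genes below is therefore a description and adds little to a call. The excess of falls over rises depended on the scaling: 44.3% of calls were rises as deposited, 50.4% after quantile normalization and 51.6% after centring of the array medians, a step that shifted the change of the typical probe set by 0.12. Of the 10696 called probe sets 10364 had the same direction in wild-type cells.

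**Figure D2:**
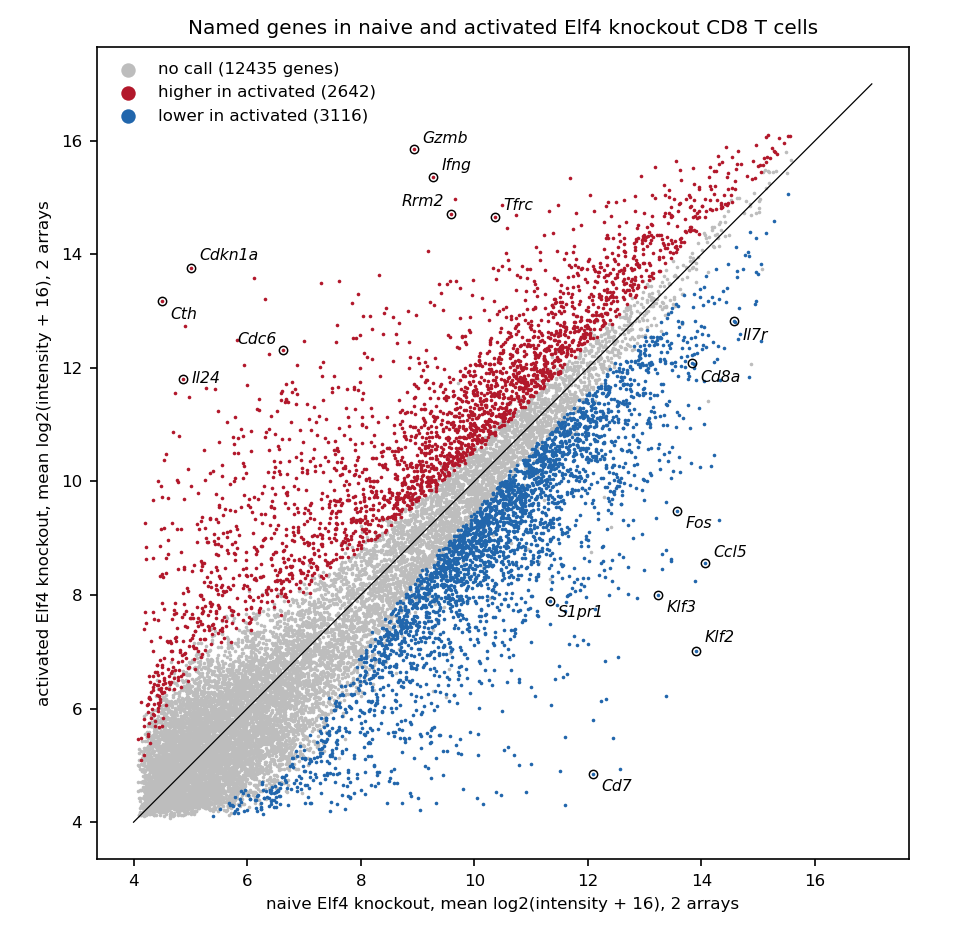
Mean log2(intensity + 16) of each named gene over the 2 naive knockout arrays (horizontal) and the 2 activated knockout arrays (vertical), with called rises and falls coloured. The 2642 rises lie above the diagonal and the 3116 falls below it, and some of the genes given in the text are named.

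The largest rises joined a cell cycle inhibitor, amino acid enzymes, cytokines and a granzyme. They were picked by size, like the largest falls, among called genes whose naive and activated knockout values did not overlap. Their separation was thus set by the choice, and their values are a description. Sex genes and markers of other cell types were left out of both and are given with their lists. Cdkn1a, which encodes the cyclin-dependent kinase inhibitor p21, read 9.35 and 24.7 on the naive arrays and 13553 and 14007 on the activated arrays (log2 change 8.75, SE 0.26, adjusted p = 5.52e-09 from limma). Cth, cystathionine gamma-lyase, which makes cysteine, read 4.41 and 9.37 and then 9387 and 9181 (log2 change 8.67). Both genes went from the bottom of the intensity range to near the top on both activated arrays. Gzmb, granzyme B, read 364 and 611 and then 54925 and 63368, a 121-fold rise (log2 change 6.92, SE 0.26, adjusted p = 2.32e-08). Asns, asparagine synthetase, read 128 and 156 and then 11160 and 11777, an 80.9-fold rise (log2 change 6.19). Gpt2, the mitochondrial alanine aminotransferase, read 15.9 and 30.7 and then 3232 and 3180 (log2 change 6.38). Asns, Gpt2 and Cth handle non-essential amino acids, and for each the 2 activated arrays lay close together. Among secreted factors Lif, leukaemia inhibitory factor, read 41.6 and 39 and then 5614 and 5840 (log2 change 6.67). Csf2, which encodes GM-CSF, read 14.1 and 45.3 and then 2869 and 3486 (log2 change 6.21). Il24, a cytokine of the IL-10 family, read 15.1 and 11.4 and then 3659 and 3492 (log2 change 6.94). The remaining 4 of the 12 largest rises were Slfn3 (log2 change 7.83), a Schlafen family gene, Vldlr (6.50), a lipoprotein receptor, Svs5 (6.83), known from the seminal vesicle, and Slc35d3 (6.18). The lowest of these naive values are near the bottom of the intensity range, and the offset of 16 makes a log2 change understate such rises.

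The largest falls took out a homing regulator, a surface receptor and interferon-related genes. Klf2, the Krüppel-like factor that drives S1pr1 and keeps T cells quiescent, read 13372 and 17568 on the naive arrays and 109 and 119 on the activated arrays, a 136-fold fall (log2 change -6.88, SE 0.18, adjusted p = 3.25e-09). Cd7, an immunoglobulin family receptor of T and NK cells, read 3943 and 4739 and then 12.9 and 12.6 (log2 change -7.24). Hsd11b1, the enzyme that reactivates glucocorticoids, read 5302 and 4845 and then 108 and 25.6 (log2 change -6.14). All 3 were high on both naive arrays and low on both activated arrays. Rtp4, an interferon-stimulated gene, read 4622 and 5021 and then 53 and 54.9, an 89.3-fold fall (log2 change -6.11). Ifi213, of the interferon-inducible gene cluster on chromosome 1, read 1037 and 1912 and then 11.5 and 1.86 (log2 change -6.01). Calhm6, a calcium homeostasis modulator family gene, read 1822 and 1994 and then 4 and 10.8 (log2 change -6.38). Of the other 6 in the top 12, Gm11346 (log2 change -6.95), Mturn (-6.61), Baiap3 (-6.30), Slc16a5 (-5.83) and Smim27 (-5.78) fell on both arrays. The sixth, the immunoglobulin heavy chain segment Ighv14-2 (-5.97), is a product of B cells and moved with their markers.

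**Figure D3:**
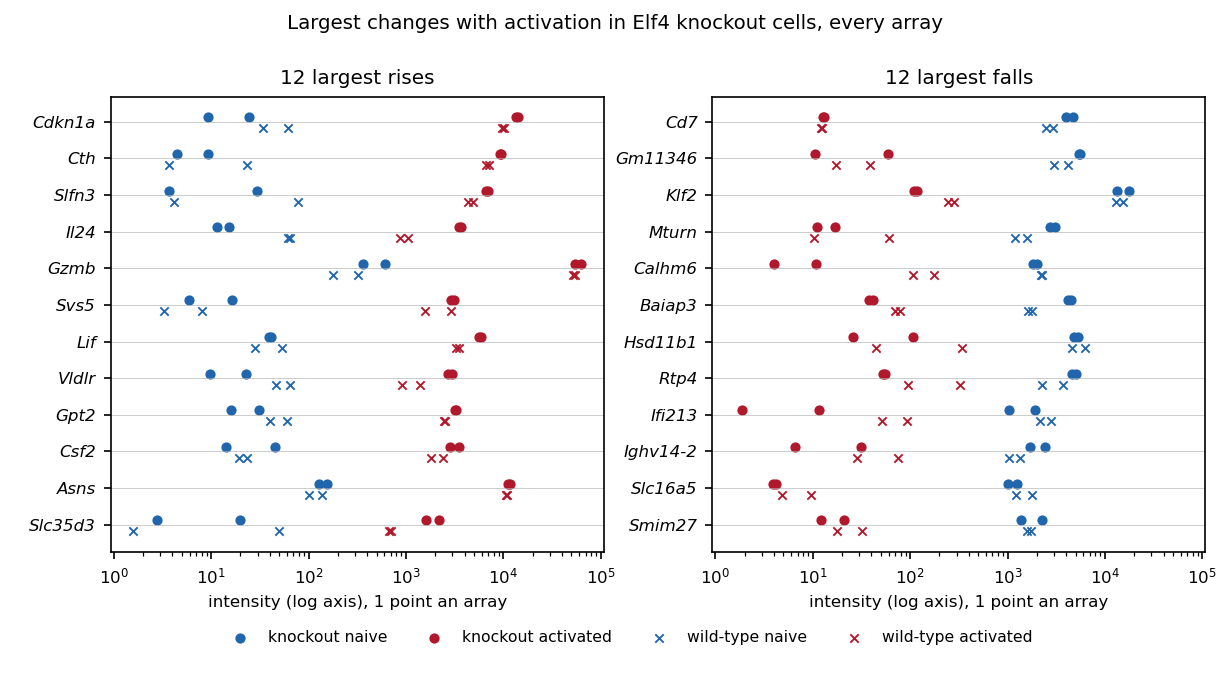
Intensity on each array of the 12 most raised and the 12 most lowered genes, on a log10 axis, with circles for knockout and crosses for wild-type arrays. Genes were chosen for naive and activated knockout values that do not overlap, so these points are apart by choice. Gzmb, for example, read 364 and 611 against 54925 and 63368.

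The machinery of cell division rose almost as a whole. Of 59 measured genes of G2/M and mitosis 55 rose and 1 fell, against 14.5% and 17.1% of all named genes, with a median change of 3.34 on the log2 scale. Mki67, the Ki-67 proliferation marker, read 714 and 1006 on the naive and 10582 and 10998 on the activated arrays, a 12.5-fold rise (log2 change 3.64, SE 0.20, adjusted p = 2.17e-07). Top2a, which untangles sister chromatids, read 700 and 922 and then 12225 and 11382 (14.6-fold). Cdk1, the mitotic kinase, read 282 and 198 and then 3421 and 3409 (14.2-fold). Naive and activated values lay far apart for all 3. Aurkb, the kinase of the chromosomal passenger complex, read 50.9 and 141 and then 3646 and 3098 (log2 change 5.04). Nek2, a centrosome kinase, rose by 4.96, Kif2c, a kinesin that depolymerises microtubules at kinetochores, by 4.05, and Cdc20, the activator of the anaphase-promoting complex, by 2.83 on the log2 scale. Cdc25b, a phosphatase that activates CDK1, was the member that fell (log2 change -1.77), and Foxm1, Smc4 and Pttg1 had no call. The 2 naive knockout arrays lay above the 2 naive wild-type arrays: the list's mean log2 level was 8.01 and 8.31 there, against 7.38 and 7.56 on the naive wild-type arrays, 11.23 and 11.21 on the activated knockout and 11.37 and 11.42 on the activated wild-type arrays.

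Genes of DNA replication rose with those of mitosis. Of 50 measured members 39 rose and none fell (0, or 1 when the 4 knockout arrays were fitted alone), with a median of 1.55. Cdc6, which loads the replicative helicase, read 49.3 and 134 on the naive and 5182 and 4928 on the activated arrays (log2 change 5.68, SE 0.35, adjusted p = 5.78e-07). Mcm5, a subunit of that helicase, read 3357 and 3406 and then 21216 and 23357, a 6.59-fold rise. Pcna, the sliding clamp of the polymerases, read 5562 and 10150 and then 22964 and 24091 (2.99-fold). All 3 separated the states on every array, though the naive Pcna values were themselves uneven. Orc1 of the origin recognition complex (log2 change 4.47), Uhrf1, which copies DNA methylation marks (3.65), Mcm4 (3.05) and Mcm6 (2.74) had the smallest p of the list beside the genes fixed for it. Fen1 (-1.33), which processes Okazaki fragments, had the lowest value and no call.

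Promoters are shown for a pair of genes from each list, as most members of both lists rose. They were chosen for their matches after the search. Each is the stretch of 200 bases before the gene start in RefSeq on GRCm38.p6, 5′ to 3′ on the gene's strand: Mcm5 at chr8:75109309-75109508 (+), Cdc6 at chr11:98907951-98908150 (+), Cdk1 at chr10:69352913-69353112 (-) and Ccnb2, a mitotic cyclin that rose by 2.96 on the log2 scale, at chr9:70421555-70421754 (-). Capitals mark every match of the E2F, CHR or CCAAT letters spelled out after the sequences.
Mcm5: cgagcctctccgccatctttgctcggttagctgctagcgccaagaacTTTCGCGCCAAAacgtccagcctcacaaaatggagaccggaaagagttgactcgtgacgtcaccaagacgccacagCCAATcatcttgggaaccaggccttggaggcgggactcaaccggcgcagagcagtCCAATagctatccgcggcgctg
Cdc6: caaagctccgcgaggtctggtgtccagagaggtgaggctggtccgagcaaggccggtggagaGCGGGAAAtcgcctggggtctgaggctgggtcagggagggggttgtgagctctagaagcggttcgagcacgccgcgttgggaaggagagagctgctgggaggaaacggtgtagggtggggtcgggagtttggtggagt
Cdk1: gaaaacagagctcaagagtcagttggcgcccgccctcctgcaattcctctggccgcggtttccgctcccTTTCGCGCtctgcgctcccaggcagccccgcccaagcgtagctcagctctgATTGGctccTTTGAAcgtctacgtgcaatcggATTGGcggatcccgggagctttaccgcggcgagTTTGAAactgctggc
Ccnb2: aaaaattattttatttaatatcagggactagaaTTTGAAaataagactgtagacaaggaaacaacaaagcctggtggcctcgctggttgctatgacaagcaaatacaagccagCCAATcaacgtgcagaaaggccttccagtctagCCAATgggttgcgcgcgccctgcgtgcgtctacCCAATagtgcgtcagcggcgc
The E2F letters searched were TTTCCCGC, TTTCGCGC, TTTGCCGC and TTTGGCGC, the CHR letters TTTGAA and the CCAAT box CCAAT, all on both strands, from 250 bases before to 50 after the gene start. In Mcm5 the pair of E2F matches overlap, and 2 CCAAT matches follow them. Cdk1, shown for its CHR letters, holds an E2F match too. E2F letters were found in 17 of 41 replication promoters (41.5%) and 4 of 50 mitosis promoters (8%), and in 550 of all 14452 promoters (3.81%). CHR letters were found in 35 of 50 mitosis promoters (70%) and 17.1% of replication promoters, against 15.7% of all. CCAAT was found in 72% of mitosis promoters, 58.5% of replication promoters and 42% of all. A match is a description of the letters in these windows and is not a bound site.

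Regulators of the G1 phase were mixed. Of 30 genes for cyclin-dependent kinase inhibitors, G1 cyclins, E2F factors and pocket proteins 16 rose and 4 fell (2 without naive replicate 1 or 2, 1 without activated replicate 2), with a median of 0.72. Ccne2, a cyclin that drives entry into S phase, rose by 4.97 and its relative Ccne1 went from 4561 and 2531 to 10992 and 10907 (3.09-fold). Cdk6, the kinase partner of the D cyclins, rose by 3.10 on the log2 scale, and Ccnd2, 1 of those cyclins, read 12504 and 10079 and then 18950 and 20243 (1.74-fold, adjusted p = 0.00499, and 0.0522 without activated replicate 2). Beside the rise of Cdkn1a, Cdkn1b, which encodes the inhibitor p27, read 1003 and 1123 and then 557 and 487, a 2.04-fold fall whose adjusted p of 0.0274 became 0.077 to 0.161 when any of the 4 knockout arrays was left out. Cdkn2c, the inhibitor p18, read 1041 and 1024 and then 1039 and 1058, with no call. E2f1 read 118 and 152 and then 223 and 302, apart but with no call (log2 change 0.88, adjusted p = 0.0736, and 0.03 after quantile normalization). DNA repair and checkpoint genes had 19 of 32 rise and 4 fall, with Chek1, the checkpoint kinase, going from 164 and 120 to 4109 and 4182 (29.2-fold). Of 27 enzymes of DNA methylation and chromatin 12 rose and 5 fell (3 without activated replicate 2), with Ezh2, the methyltransferase of Polycomb, rising from 1121 and 1423 to 14217 and 13585 (10.9-fold).

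Synthesis of nucleotides and lipids and uptake of nutrients rose on the activated arrays. Of 32 genes of nucleotide synthesis and one-carbon metabolism 27 rose and 1 fell (0 without activated replicate 1), with a median of 1.61. Rrm2, the small subunit of ribonucleotide reductase, read 723 and 795 on the naive and 25668 and 27869 on the activated arrays (35.3-fold, log2 change 5.11, SE 0.13, adjusted p = 3.25e-09). Psat1, a serine synthesis enzyme, rose by 4.38, and Mthfd2, of mitochondrial folate metabolism, went from 1362 and 1739 to 13618 and 13811 (8.84-fold). Impdh1, of guanine nucleotide synthesis, fell by 0.94. Of 26 genes of cholesterol and fatty acid synthesis 21 rose and 1 fell (Srebf1, by 0.80), with a median of 1.82. Scd2, a fatty acid desaturase, read 2504 and 4249 and then 42144 and 40579 (12.3-fold), and Sqle, the squalene epoxidase, 720 and 732 and then 6220 and 6018 (8.43-fold). Of 19 nutrient transporters 12 rose and 0 fell. Tfrc, the transferrin receptor, read 1091 and 1540 and then 25627 and 26222 (19.7-fold), Slc7a5, of the large neutral amino acid transporter, 662 and 841 and then 6194 and 5704 (7.91-fold), and Slc2a1, the glucose transporter GLUT1, 2133 and 1771 and then 8057 and 8638 (4.28-fold). For the genes given here with array values the states did not overlap, as for 58.5% of all probe sets.

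Genes of sugar use mostly rose, and those of respiration moved in both directions. Of 21 genes of glycolysis and the pentose phosphate pathway 15 rose and 2 fell (1 without naive replicate 2 or activated replicate 1), with a median of 1.31. Hk2, the inducible hexokinase, read 208 and 222 on the naive and 8853 and 9247 on the activated arrays (42.1-fold, log2 change 5.29, SE 0.14, adjusted p = 4e-09). Tpi1 rose by 3.46 and Pgam1 by 2.98, and Ldha, lactate dehydrogenase A, went from 10572 and 14978 to 44519 and 46740 (3.57-fold). The pair that fell were Pgls (-1.17) and Taldo1 (-0.68), both of the pentose phosphate pathway. Of 42 genes of the TCA cycle and respiratory chain 18 rose (11 without activated replicate 2) and 6 fell, with a median of 0.42. Cox5a, a subunit of cytochrome oxidase, rose 3.19-fold and Cs, citrate synthase, went from 7805 and 6999 to 17986 and 20394 (2.59-fold), while Idh2 (-1.97), Sdha (-1.58) and Atp5o (-1.46) fell. Within ATP synthase Atp5o fell while Atp5b rose by 0.60 on the log2 scale.

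Protein synthesis and folding genes were divided between lists. Of 49 genes of ribosome biogenesis and RNA polymerase I 28 rose and 3 fell, with a median of 0.64. Noc4l, a nucleolar assembly factor, rose by 2.79, and Ncl, nucleolin, went from 10900 and 11604 to 26697 and 24775 (2.29-fold). Fbl, fibrillarin, which methylates ribosomal RNA, fell from 8513 and 8773 to 4468 and 4211 (1.99-fold), and Imp3 (-1.72) and Ubtf (-1.21) fell too. Among 27 cytosolic ribosomal protein genes 8 rose (3 without naive replicate 2, 5 without activated replicate 1, 1 without activated replicate 2 and 0 after quantile normalization) and 7 fell, and their median of 0.27 became -0.09 after quantile normalization. Among 30 mitochondrial ribosomal protein genes 12 rose (7 without naive replicate 2, 6 without activated replicate 2) and 4 fell (2 without activated replicate 2). The counts of rises in both ribosomal lists thus rested on single arrays. Of 35 genes of ER chaperones, the unfolded protein response and heat shock proteins 27 rose and 0 fell (1 without naive wild-type replicate 2), with a median of 1.25. Xbp1, a transcription factor of the unfolded protein response, read 4018 and 3536 and then 22981 and 24012 (6.22-fold), and Hspd1, the mitochondrial chaperonin, 5220 and 5273 and then 30112 and 31555 (5.88-fold). Of 35 proteasome subunit genes 21 rose and 8 fell. The interferon-inducible subunits were among those that fell: Psmb10 (-2.17), Psmb9 (-1.34), Psmb8 (-1.23) and the activator subunit Psme1 (-1.02).

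The Myc network was mixed. Of 12 measured genes 3 rose (1 without activated replicate 1 or 2, 5 after quantile normalization) and 3 fell, with a median of -0.09 that became 0.08 after quantile normalization. Myc read 1974 and 2069 on the naive and 3119 and 3179 on the activated arrays, a 1.56-fold rise (adjusted p = 0.00952, and 0.0585 and 0.07 without activated replicate 1 or 2). Mycn, its relative, read 17 and 8.89 and then 532 and 586 (log2 change 4.33). Mxd4, an antagonist that competes for Max, fell from 4331 and 2782 to 595 and 583 (6.04-fold). For each of the 3 the states did not overlap, though Myc was already abundant on the naive arrays.

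**Figure D4:**
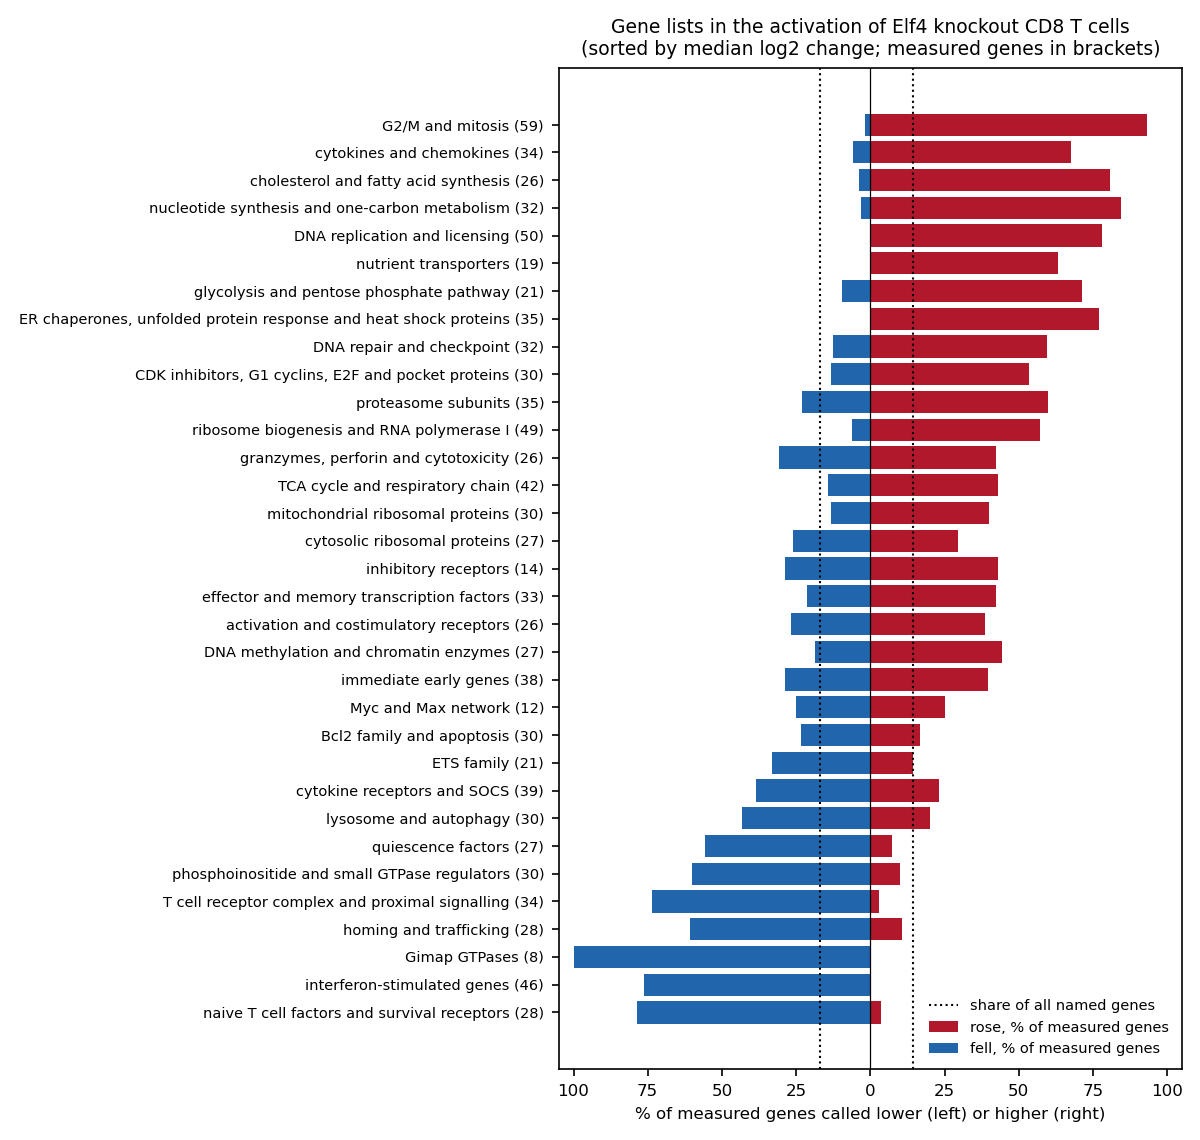
Share of measured members that rose (right of 0) and fell (left of 0) in each list of genes, in percent, with the 14.5% of rises and 17.1% of falls over all named genes drawn as dotted lines and the lists sorted by median change. Mitosis, replication and nucleotide synthesis lie at the rising end, and Gimap GTPases, naive T cell factors and interferon-stimulated genes at the falling end.

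Genes of the resting state fell. Of 27 quiescence factors 15 fell and 2 rose (Klf9 and Ndrg1), with a median of -0.80. Besides Klf2, Klf3 (-5.24), Slfn1 (-4.73), Txnip (-3.91) and Btg2 (-2.58) had the smallest p. Txnip inhibits glucose uptake and Btg2 restrains proliferation. Foxo1, which keeps Il7r and Klf2 expressed, read 6523 and 8306 and then 2024 and 2081 (3.61-fold lower). Slfn2, a Schlafen gene needed for T cell quiescence, read 14590 and 13155 and then 2263 and 2991 (5.28-fold lower). Not every such factor moved: Tob1 read 1038 and 998 and then 931 and 854 with no call, and Btg1 14853 and 16674 against 16037 and 15746 on its brightest probe set, although its other 2 probe sets fell. Of 28 naive T cell factors and survival receptors 22 fell and 1 rose, with a median of -1.70. Il7r, the IL-7 receptor, read 24217 and 24699 and then 7057 and 7350 (3.4-fold lower, adjusted p = 1.03e-06), and Lef1, a factor of naive and memory T cells, 8315 and 8956 and then 2177 and 2209 (3.94-fold lower). Satb1, a chromatin organiser, was the member that rose, from 10153 and 10471 to 17847 and 18684 on its brightest probe set, although another fell, from 6234 and 5742 to 4239 and 3847 (adjusted p = 0.0195).

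Homing receptors fell alongside. Of 28 genes of homing and trafficking 17 fell and 3 rose, with a median of -1.37. S1pr1, the receptor for lymph node exit, read 2348 and 2800 on the naive and 210 and 237 on the activated arrays (11.5-fold lower, log2 change -3.43, SE 0.19, adjusted p = 2.2e-07). Ccr7, for lymph node entry, read 8955 and 7233 and then 3177 and 2844 (2.69-fold lower). Cxcr3, the receptor that leads effector cells to inflamed tissue, read 9466 and 7013 and then 308 and 360 (24.7-fold lower). The fall thus covered receptors of lymphoid recirculation and of inflamed tissue. Ccr9, the gut homing receptor, had the lowest value (log2 change -7.62), and the integrin subunits Itga4 (14.5-fold) and Itgae (9.82-fold) fell too. The genes that rose were Fut7 (3.88), the fucosyltransferase that makes selectin ligands, Ccr4 (2.93) and Itgav (1.66). All 8 measured Gimap genes, GTPases of lymphocyte survival, fell, with a median of -1.54, among them Gimap6, from 5587 and 6515 to 1111 and 892 (6.04-fold).

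Effector products rose selectively. Of 26 genes of granzymes, perforin and cytotoxicity 11 rose and 8 fell, with a median of 0.44. Gzmb led, followed by Gzmc (log2 change 5.91), Serpinb6b (3.95), Gzmf (3.19) and the granzyme B inhibitor Serpinb9 (2.97). Fasl, the ligand that triggers death through FAS, read 353 and 445 on the naive and 2265 and 1844 on the activated arrays (5.15-fold). Perforin did not rise with granzyme B: Prf1 read 2596 and 1840 and then 1353 and 1270, a 1.69-fold fall (adjusted p = 0.0136) that lost its call without naive replicate 1 or either activated replicate (up to 0.115). Gzma read 2376 and 4730 and then 1812 and 1825 with no call, and Gzmk (8.91-fold), Gzmm (log2 change -4.50) and Ctsw (-3.73) fell. The naive values of Gzma differed by more than its change.

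Of 34 cytokines and chemokines 23 rose and 2 fell, with a median of 2.19. Ifng, interferon gamma, read 657 and 550 on the naive and 38935 and 45856 on the activated arrays (70.3-fold, log2 change 6.10, SE 0.30, adjusted p = 1.1e-07). Il2, the T cell growth factor, read 11.1 and 38.7 and then 1080 and 984 (log2 change 4.77), and Ccl3, a chemokine of activated lymphocytes and macrophages, 90.2 and 107 and then 2849 and 3471 (32-fold). These 3 stood apart on every array. Cytokines that are better known from CD4 helper cells rose as well, namely Il13 (5.84), Il3 (5.33), Il9 (5.03), Il17a (4.39), Il5 (3.36) and Il4 (2.85), while Cd4 had no call. Tnf rose 3.23-fold, from 246 and 255 to 909 and 707. Ccl5, which memory and NK cells store as RNA, fell from 17268 and 17084 to 284 and 464 (45.9-fold), and Ltb, lymphotoxin beta, fell by 3.07. The count of rises in this list was 10 when probe sets had to reach the array median on 6 of the 8 arrays, as many members were dim on the naive arrays.

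Receptors for cytokines changed in both directions. Of 39 receptors and SOCS genes 9 rose and 15 fell. Il2ra, the alpha chain of the IL-2 receptor, read 55.6 and 50.9 on the naive and 12604 and 11918 on the activated arrays (230-fold, log2 change 7.47, SE 0.17, adjusted p = 3.25e-09). Cish, an inhibitor induced by IL-2 signalling, read 628 and 595 and then 8791 and 8883 (14.5-fold), and Socs2 rose by 4.46. The receptors that fell served other cytokines: the IL-6 receptor chains Il6ra (-4.50) and Il6st (-4.01), and Ifngr1 from 4628 and 3420 to 647 and 375 (7.88-fold). Of 26 activation and costimulatory receptors 10 rose and 7 fell, with Tnfrsf9, or 4-1BB, going from 809 and 693 to 11968 and 11750 (15.8-fold), Cd44 from 2712 and 1913 to 17416 and 16431 (7.32-fold) and Icos from 4305 and 4445 to 28761 and 27079 (6.38-fold). Slamf6 fell by 4.69, and Cd69, an early activation marker, read 3512 and 2835 and then 2014 and 1763, a fall whose adjusted p of 0.00827 became 0.069 without naive replicate 1 and 0.0861 without activated replicate 2. Of 14 inhibitory receptors 6 rose and 4 fell. Ctla4 read 259 and 357 and then 13321 and 12238 (41.5-fold), Pdcd1, or PD-1, 165 and 186 and then 684 and 904 (4.53-fold), and Cd200 rose by 4.11, while Vsir (-2.68) and Klrg1 (-2.66) were among those that fell.

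Transcription factors of effector and memory cells were likewise divided, with 14 of 33 rising and 7 falling. Irf4, induced in proportion to receptor signal, read 210 and 344 on the naive and 7933 and 7426 on the activated arrays (27.7-fold, log2 change 4.75, SE 0.28, adjusted p = 4.46e-07). Bhlhe40 rose by 4.90, Zbtb32 by 3.97 and Nfil3 by 3.45. Tbx21, which encodes T-bet, the factor that drives interferon gamma, read 1252 and 1312 and then 1022 and 1013, apart but with no call, and Prdm1, which encodes BLIMP1, 152 and 187 and then 147 and 144, also with no call. Eomes, the T-box factor of memory and cytotoxic cells, fell from 2814 and 3132 to 1121 and 1074 (2.71-fold), and Runx1 fell by 4.29. High interferon gamma and granzyme B RNA were thus recorded beside T-bet and BLIMP1 RNA that had not risen.

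Genes of receptor signalling fell. Of 34 genes of the T cell receptor complex and proximal signalling 25 fell and 1 rose (0 without activated replicate 1, 2 without naive replicate 2), with a median of -1.14. Cd3e, a chain of the receptor complex, read 4851 and 3757 on the naive and 724 and 816 on the activated arrays (5.59-fold lower, adjusted p = 8.24e-07). Cd8a, the coreceptor that defined the cells, read 14240 and 14897 and then 4288 and 4397 (3.35-fold lower), and Cd8b1 13370 and 11695 and then 2356 and 2199 (5.5-fold lower). Both chains of the coreceptor were low on both activated arrays relative to the naive ones. Cblb, an inhibitory ubiquitin ligase, was the member that rose on its brightest probe set (log2 change 0.72), although another fell (-1.20, adjusted p = 0.0051 from limma). Of 30 regulators of phosphoinositides and small GTPases 18 fell and 3 rose, among them Rasa3, from 8757 and 11630 to 438 and 373 (25.1-fold), and Pik3ip1, an inhibitor of PI3 kinase, from 7322 and 6897 to 594 and 413 (14.1-fold). Of 30 lysosome and autophagy genes 13 fell and 6 rose.

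Immediate early genes did not move together. Of 38 measured members 15 rose and 11 fell, with a median of 0.14. Fos, a subunit of AP-1, read 13860 and 10744 on the naive and 715 and 681 on the activated arrays (17.6-fold lower, log2 change -4.10, SE 0.16, adjusted p = 2.53e-08). Dusp1, a phosphatase of MAP kinases, read 5335 and 3118 and then 460 and 441 (9.38-fold lower), and Ier2 7283 and 6024 and then 2241 and 1868 (3.24-fold lower). Those 3 were high in cells that had received no stimulus in culture. Nr4a2 (4.82), Plk2 (4.80), Rgs1 (4.32) and Dusp4 (4.26) rose, and Nr4a1 went from 757 and 519 to 2208 and 1763 (3.11-fold). Egr1 read 3626 and 3010 and then 3399 and 3935, an overlap with no call.

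Interferon-stimulated genes fell as a group. Of 46 measured members 35 fell and 0 rose (1 without naive replicate 1), with a median of -1.55. Irf7, the factor that amplifies interferon, read 1743 and 2376 on the naive and 117 and 35.8 on the activated arrays (26.9-fold lower, log2 change -4.63, SE 0.37, adjusted p = 3.39e-06). Ifit1, which binds viral RNA caps, read 1374 and 1142 and then 42.4 and 108 (16.7-fold lower), and Mx1, an antiviral GTPase, 561 and 601 and then 32.6 and 26.8 (19.6-fold lower). All 3 were low on both activated arrays although Ifng RNA was high there. Gbp2, known as a target of interferon gamma, also fell, from 6498 and 6342 to 2113 and 2187 (2.99-fold). B2m had no call (-0.07). Macrophage, granulocyte and B cell markers fell with this list, and their part in it was not tested.

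Survival genes were called about as often as named genes at large. Among those measured 16.7% rose and 23.3% fell, against 14.5% and 17.1% of all named genes. Of 30 genes of the Bcl2 family and apoptosis 5 rose (3 without naive replicate 1 or either activated replicate) and 7 fell (3 without activated replicate 1, 4 without activated replicate 2). Bcl2l1, which encodes BCL-XL, read 647 and 555 on the naive and 3292 and 3523 on the activated arrays (5.67-fold). Bcl2l11, which encodes the killer protein BIM, fell from 7839 and 4300 to 1106 and 1029 (5.69-fold). Bcl2 read 6913 and 5824 and then 5979 and 6315, and Mcl1 8101 and 9450 and then 9006 and 8401 on its brightest probe set, both overlapping and with no call, although 4 of the 6 Mcl1 probe sets fell.

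Elf4 itself gave low intensities in every array. Its brighter probe set read 165 and 192 on the naive and 76.2 and 80.6 on the activated knockout arrays, apart but with no call (log2 change -1.04, adjusted p = 0.11, and 0.043 when probe sets had to reach the median on 6 of 8 arrays). The same probe set read 116 and 199 on the naive and 83.6 and 134 on the activated wild-type arrays. The dimmer probe set read 77.6 and 58.2 and then 1.92 and 26.1 in the knockout, and 32.4 and 9.37 and then 112 and 58.5 in wild type. The sources used here do not say whether the probes fall inside the deletion, and these values are no check of genotype. Of 21 ETS family genes 7 fell (4 without naive replicate 2 or activated replicate 2) and 3 rose. As shares of this list 33.3% fell and 14.3% rose, against 17.1% and 14.5% of all named genes. Ets1 fell from 15938 and 17109 to 5664 and 4666 (3.2-fold), and Etv6 rose from 694 and 563 to 1909 and 1789 (2.94-fold). Spib, also a B cell marker here, fell by 2.71.

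Of the Krüppel-like factors that ELF4 is known to act through, Klf2 fell in the knockout and Klf4 had no call. Klf4, which restrains division, read 535 and 302 on the naive and 284 and 363 on the activated knockout arrays, an overlap with no call (log2 change -0.31, adjusted p = 0.558). On the wild-type arrays Klf4 read 1861 and 2894 and then 391 and 280, a fall (log2 change -2.75, adjusted p = 5.19e-05). The difference between the genotypes' changes, 2.44 on the log2 scale, had an adjusted p of 0.124 from limma and was not called. A dimmer Klf4 probe set did not show this contrast. It read 207 and 87.9 and then 86.8 and 4.83 in the knockout (log2 change -1.72, no call). In wild type it read 113 and 340 and then 73.9 and 57 (log2 change -1.40, no call). Its difference was -0.32, also with no call. Klf2 fell by 6.88 in the knockout and by 5.67 in wild type, and that difference was not called either (adjusted p = 0.186). Cdkn1a rose by 8.75 in the knockout and by 7.32 in wild type (adjusted p = 0.321 for the difference). On the brightest probe sets of these 3 genes no difference between the changes of the 2 genotypes passed the test.

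Set against wild-type activation as a whole, few genes were called as different. With 2 arrays a group, a gene without a call may still differ. The difference between the knockout's change and wild type's change was called for 12 of 45037 probe sets, 0.0266%, with 4 higher and 8 lower, and 10 named genes among them. Without naive wild-type replicate 2 the count was 48 and without naive knockout replicate 1 it was 33. It was 6 without naive knockout replicate 2, 3 without activated knockout replicate 2, and 0 without activated wild-type replicate 1 or 2 or activated knockout replicate 1. With no trend in the variance it was also 0. Adjusted p-values here come from limma with Benjamini-Hochberg adjustment, and an unadjusted p under 0.05 was reached by 3577 probe sets. The 2 genotypes had 7686 probe sets called in the same direction and 15 in opposite directions. Array series changed with activation in both genotypes, and the 2 cannot be told apart in these shared directions.

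Of the 10 genes Jun, the partner of FOS in AP-1, differed with a fall that was smaller in the knockout. It read 1456 and 979 and then 342 and 269 in the knockout against 6164 and 5166 and then 269 and 198 in wild type (difference 2.60, adjusted p = 0.031). Socs3, the inhibitor of IL-6 receptor signalling, read 5338 and 5170 and then 3049 and 2973 against 9221 and 7920 and then 1194 and 1587 (difference 1.82, adjusted p = 0.0213). For both genes the naive knockout values lay below the naive wild-type ones. The activated knockout values of Socs3 lay above those of wild type, while for Jun the lower knockout and the higher wild-type value were both 269. Il24 rose to 3659 and 3492 in the knockout and to 872 and 1056 in wild type, from naive values of 15.1 and 11.4 against 64.2 and 61.4 (difference 3.31, adjusted p = 0.0145). Dnajb9, a chaperone of the ER, read 1192 and 1625 and then 1313 and 1208 against 4038 and 4089 and then 1034 and 990 (difference 1.85, adjusted p = 0.031). In the knockout Dnajb9 had overlapping states, while in wild type it fell.

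The other 6 named genes had a lower change in the knockout. Lad1, known from epithelial basement membranes, read 269 and 273 and then 309 and 410 against 310 and 367 and then 4936 and 4035 in wild type (difference -3.29, adjusted p = 0.00583). Mki67 had a smaller rise, since wild type went from 174 and 255 to 13710 and 14188 (difference -2.30, adjusted p = 0.0213). Ccdc50 read 2873 and 3130 and then 3655 and 3250 against 646 and 919 and then 3860 and 3678 (difference -2.07, adjusted p = 0.0213). Mki67 and Ccdc50 were higher on both naive knockout arrays than on both naive wild-type arrays. Ifi209 fell from 6008 and 6259 to 89.3 and 69.3 against 6186 and 5177 to 371 and 336 (difference -2.08, adjusted p = 0.0213). Mndal, its neighbour in the interferon-inducible cluster on chromosome 1, fell from 10658 and 10535 to 407 and 449 against 12742 and 12424 to 1658 and 1642 (difference -1.66, adjusted p = 0.0145). Both reached lower activated values in the knockout from like naive values. Igha, the heavy chain of IgA, read 5136 and 11402 and then 101 and 52.9 against 370 and 193 and then 152 and 115 (difference -5.48, adjusted p = 0.0145). The summed granulocyte signal lay above wild type on both naive knockout arrays, and that of B cells and plasma cells on naive knockout replicate 2 alone (49667 and 85174 against 51609 and 48842). The part of those cells in the value of Igha was not tested.

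**Figure D5:**
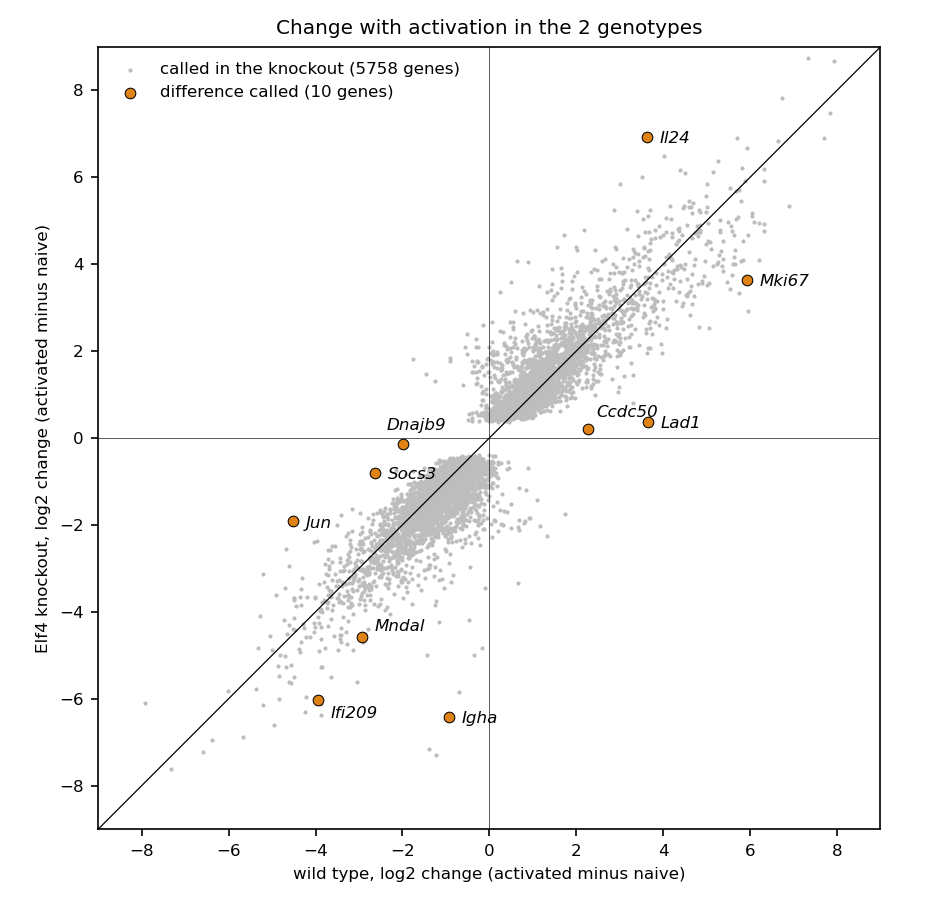
Log2 change on activation in wild-type cells (horizontal) and Elf4 knockout cells (vertical) of the 5758 named genes called in the knockout, with the 10 named genes called for the difference marked. Most points lie along the diagonal, and Jun, Dnajb9, Socs3 and Il24 lie above it.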

How the data were processed

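The deposited table of the authors holds linear intensity values, 1 for each probe set on each array. MAS5 made them per the submitters' processing notes (version: not given in the sources used here). These intensity columns had equal trimmed means, so no further scaling was applied, and detection calls were not used here. Probe sets were named from the platform's annotation: 34945 had 1 symbol, 932 several and 9160 none, and 34741 symbols were matched through Entrez identifiers to GRCm38.p6. From log2(intensity + 16), 4 group means were fitted to all 8 arrays in limma 3.58.1 (R 4.3.3) with lmFit and eBayes with a trend, two-sided, with Benjamini-Hochberg adjustment over 45037 probe sets and a threshold of 0.05. The number of arrays, 2 a group, limits the precision. A gene's value is that of its brightest probe set over the 8 arrays, and fold changes are ratios of mean intensities. Of 1215 entries in 42 lists 1126 were measured, and the others were not analysed here. Named genes were Elf4 and genes the study followed, the 12 largest rises and falls, key genes of each list with the 4 members of smallest p, and the genes called for the difference; other list members were named after their values were seen. The members and lists were chosen with earlier results of these data known. The fit was tested on simulated data.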

Additional observations from a re-analysis of the deposited data

Results flagged for a closer look

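A test of the difference between the activation change in knockout and in wild-type cells singled out 10 named genes. The difference, knockout change minus wild-type change on the log2 scale, was 3.31 for Il24, 2.60 for Jun, 1.85 for Dnajb9 and 1.82 for Socs3. It was -5.48 for Igha, -3.29 for Lad1, -2.30 for Mki67, -2.08 for Ifi209, -2.07 for Ccdc50 and -1.66 for Mndal. For every gene but Jun the activated arrays of the 2 genotypes did not overlap. Il24, Dnajb9 and Socs3 were higher on the activated knockout arrays, and Lad1, Mki67, Ifi209, Ccdc50, Mndal and Igha were lower. The naive knockout arrays stood below the naive wild-type arrays for Il24, Jun, Dnajb9, Socs3, Lad1 and Mndal. For Mki67, Ccdc50 and Igha the naive knockout arrays stood above the naive wild-type arrays. None of the 10 kept its call with no trend in the variance, without either activated wild-type array or without activated knockout replicate 1. Granulocyte marker sums lay above wild type on both naive knockout arrays, and B cell and plasma cell sums on naive knockout replicate 2 alone. The part of those cells in the value of Igha was not tested.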

How the results depend on the processing

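The count of called probe sets on activation of knockout cells was 10696 and lay between 7434 and 11386 when 1 array was left out. It was 8316 with no trend in the variance, and every alternative tried was within 1.5 times. The count for the difference between genotypes was 12. It was 0 with no trend, 21 with robust eBayes and 23 with the title label as a replicate block, and lay between 0 and 48 when 1 array was left out.

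With the replicate number as a replicate block 10268 probe sets were called on activation, with the title label as a replicate block 10157, and for the difference the number as a block gave 13. Same-numbered arrays did not deviate together (r of -0.0161 in the knockout and 0.0436 in wild type), so the numbers were not taken as pairs.

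Of 173 called changes of named genes 28 lost the call in at least 1 setting, which was 87 of 3408 pairs of gene and setting, and 0 reversed. Values with no call turned sign for Btg1 (-0.31 after quantile normalization, and from -0.069 without naive knockout replicate 1 to 0.10), Prdm1 (0.038 after quantile normalization), Bcl2 (0.074 after centring, and when 1 array was left out from -0.17 to 0.077), Mcl1 (0.11 after centring, and from -0.12 to 0.10) and Klf4 (from -0.71 to 0.084). Of 84 list counts, 1656 of 1764 pairs of list and setting stayed within 1.5 times. With no trend fewer members rose in ribosome biogenesis (17), the G1 regulators (10), the proteasome (13) and the TCA cycle list (7).

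These results are limited, among others, by 2 arrays a group, 1 array file code for each state and the low signal of many naive values, for which intensity near the bottom of the range sets the size of a change. Where leaving out an array left a single one in its group, the spread of the other groups was used for it. Of 1934 genes with over 1 called probe set 213 had calls in opposite directions.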

Other observations

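Probe sets of 1 gene disagreed for some abundant genes, and the position of the probe sets along the transcripts was not examined. Rps7, a protein of the small ribosomal subunit, read 40239 and 33282 on the naive and 50421 and 56524 on the activated knockout arrays by its brightest probe set, a rise of 0.54 on the log2 scale. Another Rps7 probe set read 35724 and 35883 and then 5198 and 5400, a change of -2.75. Laptm5, a lysosomal membrane protein gene that lowers T cell receptor levels, changed by 0.92 on its brightest and by -1.36 on another probe set. Ndufb5, of respiratory complex I, changed by 0.82 and -1.18, Cox6a1, of cytochrome oxidase, by 0.80 and -1.34, and Mrpl13, of the mitochondrial ribosome, by -0.54 and 1.19.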
